A study of Mus musculus and Homo sapiens with 6 samples.

Results

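In NMuMG cells, an epithelial line from mouse mammary gland, 398 open regions at gene ends were 1200 bp or wider in the library made from 100000 cells. They were selected on that width and on the distance of their centre, at most 1 kb, to an annotated gene end, which can be the 5′ or the 3′ limit of a gene. Overlapping peaks of the list were first joined into intervals, and the 398 wide intervals are part of 41330 autosomal intervals, of which 12275 lay at gene ends. The accessible chromatin was measured by ATAC-seq, in which the enzyme Tn5 inserts adapters into exposed DNA. The study prepared 1 library each from 25000, 50000, 75000 and 100000 untreated NMuMG cells at passages below 10 and time 0 h, here called the 25k, 50k, 75k and 100k lists, to tune the protocol for cell number. All 4 libraries share the line, the lysis, the Tn5 digestion and 8 PCR cycles. The series has 2 more samples, from human MDA-MB-231 cells, that are not analysed here. Because each cell number has 1 library, replicate error could not be estimated and the lists were not tested against each other. The lists hold positions and scores but no read counts, so the depth of each library is unknown, and each interval given below for a share is an exact Clopper-Pearson 95% interval that covers counting error only.

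Active promoters are usually kept free of nucleosomes just ahead of the transcription start, which makes them the most regular sites of Tn5 insertion in a mammalian genome. Many mammalian promoters lie in CpG islands, stretches rich in the dinucleotide CG that remain unmethylated, and many of these islands start transcription on both strands. A wide open region at a start can hold the starts of neighbouring genes as well as enhancer-like sequence beside the promoter.

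The promoters of 4 wide intervals are shown first because these intervals measured 1400 bp or more in every list. Each line gives the 250 bases just upstream of an annotated start, from RefSeq's promoter table for GRCm38.p6 (mm10), read 5′ to 3′ on the strand of the gene, with each CG in capitals.
Cdca3, chr6:124829926-124830175, + strand: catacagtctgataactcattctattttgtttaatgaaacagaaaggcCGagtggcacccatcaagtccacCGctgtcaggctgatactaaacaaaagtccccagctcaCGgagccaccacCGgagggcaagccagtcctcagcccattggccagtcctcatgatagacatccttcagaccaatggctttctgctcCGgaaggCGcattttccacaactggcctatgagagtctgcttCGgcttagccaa
Rbm15, chr3:107333290-107333539, - strand: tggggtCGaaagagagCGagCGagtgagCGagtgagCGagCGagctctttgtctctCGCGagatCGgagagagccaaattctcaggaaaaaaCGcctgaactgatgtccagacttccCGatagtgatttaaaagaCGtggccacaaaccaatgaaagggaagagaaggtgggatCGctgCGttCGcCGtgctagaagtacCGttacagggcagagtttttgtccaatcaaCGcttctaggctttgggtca
Rassf7, chr7:141215610-141215859, + strand: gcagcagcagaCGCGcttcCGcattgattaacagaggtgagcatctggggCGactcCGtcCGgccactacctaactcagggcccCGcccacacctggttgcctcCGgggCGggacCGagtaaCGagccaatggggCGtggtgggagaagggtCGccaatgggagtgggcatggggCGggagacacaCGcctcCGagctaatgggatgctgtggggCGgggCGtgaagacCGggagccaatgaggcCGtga
Cbx5, chr15:103239853-103240102, - strand: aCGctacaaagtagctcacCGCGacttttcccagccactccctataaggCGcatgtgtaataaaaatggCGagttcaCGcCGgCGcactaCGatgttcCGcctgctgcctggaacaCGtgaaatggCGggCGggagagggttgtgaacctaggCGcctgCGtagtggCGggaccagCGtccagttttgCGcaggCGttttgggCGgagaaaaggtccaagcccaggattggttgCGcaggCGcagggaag
The promoters of the 3 narrow gene-end intervals (300 to 600 bp) of the 100k list with the highest scores that hold a start are shown for contrast. Their places were wider than 600 bp in the other lists. In the 25k, 50k and 75k lists Spout1 measured 650, 650 and 700 bp and Tbc1d22b 650, 650 and 800 bp. Acvr2b measured 1050, 650 and 900 bp.
Spout1, chr2:30178460-30178709, - strand: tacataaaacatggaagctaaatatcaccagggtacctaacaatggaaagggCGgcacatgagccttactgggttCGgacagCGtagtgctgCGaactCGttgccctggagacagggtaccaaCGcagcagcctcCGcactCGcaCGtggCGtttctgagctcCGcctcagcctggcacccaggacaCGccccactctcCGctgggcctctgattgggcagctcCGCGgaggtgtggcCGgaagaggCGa
Tbc1d22b, chr17:29549552-29549801, + strand: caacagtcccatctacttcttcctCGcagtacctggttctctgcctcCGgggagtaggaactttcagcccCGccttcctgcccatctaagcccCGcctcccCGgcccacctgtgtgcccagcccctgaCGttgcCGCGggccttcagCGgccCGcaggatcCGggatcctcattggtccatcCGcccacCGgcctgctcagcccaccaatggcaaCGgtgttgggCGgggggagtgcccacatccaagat
Acvr2b, chr9:119401928-119402177, + strand: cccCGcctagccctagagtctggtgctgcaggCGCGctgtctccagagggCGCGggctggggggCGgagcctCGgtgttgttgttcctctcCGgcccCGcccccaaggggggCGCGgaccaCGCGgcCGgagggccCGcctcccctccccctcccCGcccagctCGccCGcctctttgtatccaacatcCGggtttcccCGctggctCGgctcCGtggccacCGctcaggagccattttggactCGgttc
The wide Cbx5 promoter held 22 CGs in these 250 bases, Rassf7 20, Rbm15 18 and Cdca3 7. The narrow ones held 24 at Acvr2b, 17 at Spout1 and 15 at Tbc1d22b, so the counts of the 2 sets overlapped. Over the 300-base window of the table, which runs to 50 bases past the start, the observed over expected CpG ratio was 1.09 at Cbx5, 1.09 at Rbm15, 0.816 at Rassf7 and 0.469 at Cdca3. It was 0.790 at Spout1, 0.695 at Acvr2b and 0.609 at Tbc1d22b. Of the motifs searched (letters below), the windows of all 4 wide promoters held CCAAT, those of Rassf7 and Cbx5 held a GC box, Cbx5 an E-box, Cdca3 the ETS letters and Rbm15 the letters CTCGCGAG. All 3 narrow promoters held a GC box, Spout1 and Tbc1d22b also held CCAAT, and Spout1 the ETS and E-box letters.

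The width that chose the intervals ran from 1200 to 1900 bp in the 100k list, with a median of 1250 bp and an upper quartile of 1350 bp. At the minimum itself lay 119 intervals of 1200 bp with a median score of 46 (12 to 153), and 189 gene-end intervals of 1150 bp just outside it also had a median score of 46 (13 to 156). The score comes from the authors for each peak and is read here only within a list. An interval joined from several peaks takes the highest of their scores, as does a place with several intervals. Just inside the minimum, by score, were the starts of Shoc2, a scaffold of the RAS and MAPK pathway, at 1200/1250/1200/1200 bp in the 25k/50k/75k/100k lists, the interval of Izumo4 and Mob3a at 1250/1250/1250/1200 bp, and Spag7 at 1000/950/1000/1200 bp. Just outside it were Rab40c at 1000/1100/1150/1150 bp, Zbtb20, which encodes a zinc finger repressor, at 1200/1200/1250/1150 bp, and Sp1, a factor that binds GC boxes, at 1150/1150/1050/1150 bp. The Zbtb20 place was thus outside the set in the 100k list while its intervals in the other 3 lists reached the minimum. Of the members, 137 (34.4%) were a single deposited peak, 189 were joined from 2 peaks, 61 from 3, 9 from 4 and 2 from 5.

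Wide intervals were uncommon in every list. At gene ends there were 134 in the 25k list (1.18%, 0.988 to 1.39), 265 in the 50k list (2.20%, 1.95 to 2.48), 297 in the 75k list (2.54%, 2.26 to 2.84) and the 398 of the 100k list (3.24%, 2.94 to 3.57). Their number followed the order of the cell numbers, with the spread between libraries of the same cell number and the depth both unknown, and their median width was 1250 bp in each list. Away from gene ends the 100k list had 159 intervals as wide, which is 0.547% of the intervals there. Gene ends held 71.7%, 71.6%, 74.6% and 71.5% of the wide intervals in the 25k, 50k, 75k and 100k lists, against 31.9%, 29.99%, 30.98% and 29.7% of all intervals.

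The places themselves were open in all libraries. Of the 398, the 25k list had an overlapping interval (1 bp or more) at 397, against 84.7% of all 100k gene-end intervals, the 50k list at 398, against 88.9%, and the 75k list at 398, against 87.9%. All 3 other lists had an interval at 397 places (99.7%, 98.6 to 100.0), against 78.4% of all gene-end intervals and 47.2% of the 4525 narrow ones. The share was also 96.4% of the 7352 gene-end intervals of 650 to 1150 bp, and 99.5% of those of 1100 to 1150 bp, so it is not particular to the members. A wider interval also offers more bases for an overlap of 1 bp. The 1 place that was not open in all 3 lies at an end of A630026N12Rik, over a start of Gabpb1, and had no interval in the 25k list.

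The width recurred less often than the place. An interval of 1200 bp or wider was at the place of 98 members in the 25k list (24.6%, 20.5 to 29.2), against 1.16% of all gene-end intervals. In the 50k list it was at 155 (38.9%, 34.1 to 43.9), against 2.33%, and in the 75k list at 176 (44.2%, 39.3 to 49.3), against 2.73%. All 3 lists had a wide interval at 65 members (16.3%, 12.8 to 20.3), against 0.595% of all gene-end intervals, or 73 places that include the 65. The share depends on the choosing list: the places wide in all 4 lists are 48.5% of the 134 wide gene-end intervals of the 25k list, 24.5% of those of the 50k list and 21.9% of those of the 75k list. The other members were wide again in 2 lists (72), in 1 (90) or in none (171, or 43.0%). Of the narrow intervals, 0.177%, 0.508% and 0.862% had a wide interval at their place in the 25k, 50k and 75k lists.

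**Figure D1:**
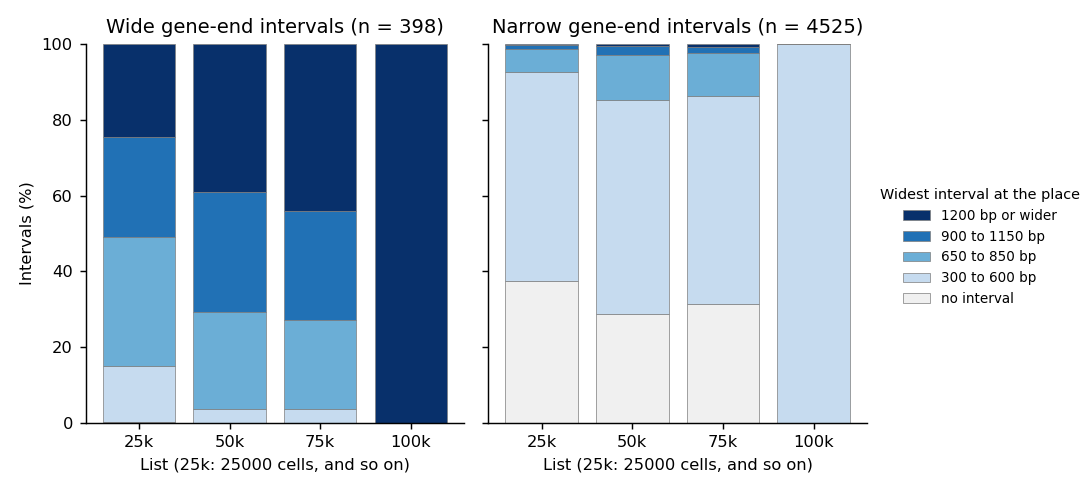
Share of intervals (%, vertical axis) by the widest interval found at the same place in each list (horizontal axis, number of cells in the library, 25k for 25000), for the 398 wide gene-end intervals and the 4525 narrow ones of the 100k list. Wide places are found again but often shorter, with 24.6%, 38.9% and 44.2% at 1200 bp or wider in the other lists, while 37.5%, 28.8% and 31.4% of the narrow places have no interval there.

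Because the members were chosen for their width in the 100k list, shorter intervals at their places in the other lists follow in part from that choice and are given as a description. The widest interval at a member's place had a median of 900 bp in the 25k list, 1100 bp in the 50k list and 1150 bp in the 75k list. On average 79.8%, 86.0% and 86.9% of the member's length was covered in these lists, and the whole length at 38, 81 and 83 members. At 119 places (29.9%) of the 25k list, 83 (20.9%) of the 50k list and 75 (18.8%) of the 75k list, the single wide interval was matched by 2 or more separate ones. The largest gap between them had a median of 50, 100 and 50 bp and reached 550, 550 and 450 bp at most. At 30, 18 and 23 of these places it was 0 bp. There the intervals touched without overlapping, so the open stretch was not interrupted. Where a split interval held a known start, the gap, counting those of 0 bp, lay downstream of the start in 59 of 100 places, 45 of 69 and 40 of 56.

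Whether a member was 1 peak or joined from several went with how often its width recurred. The 137 single peaks were wide in all 3 other lists at 36 places (26.3%, 19.1 to 34.5) and in none at 29.2%. The 261 joined members were wide in all 3 at 29 places (11.1%, 7.57 to 15.6) and in none at 50.2%. Joined members were split in the 25k list at 37.5% of places and single peaks at 15.3%. The 65 members wide in every list had a median score of 68 in the 100k list, against 48.5, 45.5 and 37 for those wide again in 2, 1 and 0 lists, and the part of peak strength in the recurrence was not tested.

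Score and width went together, so the groups were also set side by side at equal score. A joined interval has the highest score of its peaks. Joined intervals were 65.6% of members, 14.1% of intermediate and 4.75% of narrow ones, so equal score is not equal in how it arose. The members had a median score of 46 in the 100k list, the intermediate gene-end intervals (650 to 1150 bp, a class added after the data were seen, n = 7352) one of 39, and the narrow ones one of 13. Among intervals scoring 15 to 24, all 3 other lists were open at 97.9% of 48 members (88.9 to 99.9), at 88.3% of intermediate and at 70.2% of narrow intervals (67.7 to 72.6). At scores of 25 to 34 the shares were 100% of 60 members, 97.7% of intermediate intervals and 95.8% of narrow ones, and the interval of the members (94.0 to 100) held the value of the narrow ones. The members wide in all 3 other lists were 1.67% of those scoring 25 to 34, 17.7% at 35 to 49, 13.0% at 50 to 74 and 43.3% of the 67 at 75 or above.

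Few genes kept a wide interval in every library at the greatest lengths. Gt(ROSA)26Sor (chr6:113075801-113077600), the locus long used to express transgenes in all mouse tissues, measured 1700, 1650, 1850 and 1800 bp in the 25k, 50k, 75k and 100k lists, and its interval also held an end of the neighbour Setd5. Cdca3 (chr6:124828701-124830350), which helps cells enter mitosis, measured 1500, 1600, 1550 and 1650 bp. Rictor (chr15:6707351-6709250), the defining subunit of the kinase complex mTORC2, measured 1350, 1900, 1700 and 1900 bp and had the greatest width of all members. These 3 were at or above 1350 bp throughout, and only the 25k list split the Rictor region, into 2 intervals. Rbm15 (chr3:107332801-107334250), an RNA-binding protein of the m6A methylation machinery, was nearly constant at 1400, 1450, 1400 and 1450 bp. Cbx5 (chr15:103239101-103240600), which encodes the heterochromatin protein HP1 alpha and lies beside Hnrnpa1, measured 1400, 1450, 1400 and 1500 bp. The interval of Lmntd2 and Rassf7 (chr7:141215401-141216800), where Rassf7 belongs to the RAS association domain family, measured 1500, 1450, 1450 and 1400 bp and was covered in full in every other list. For these last 3 genes the spread over libraries was at most 100 bp, or 2 steps of the 50 bp grid on which peak positions lie.

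**Figure D2:**
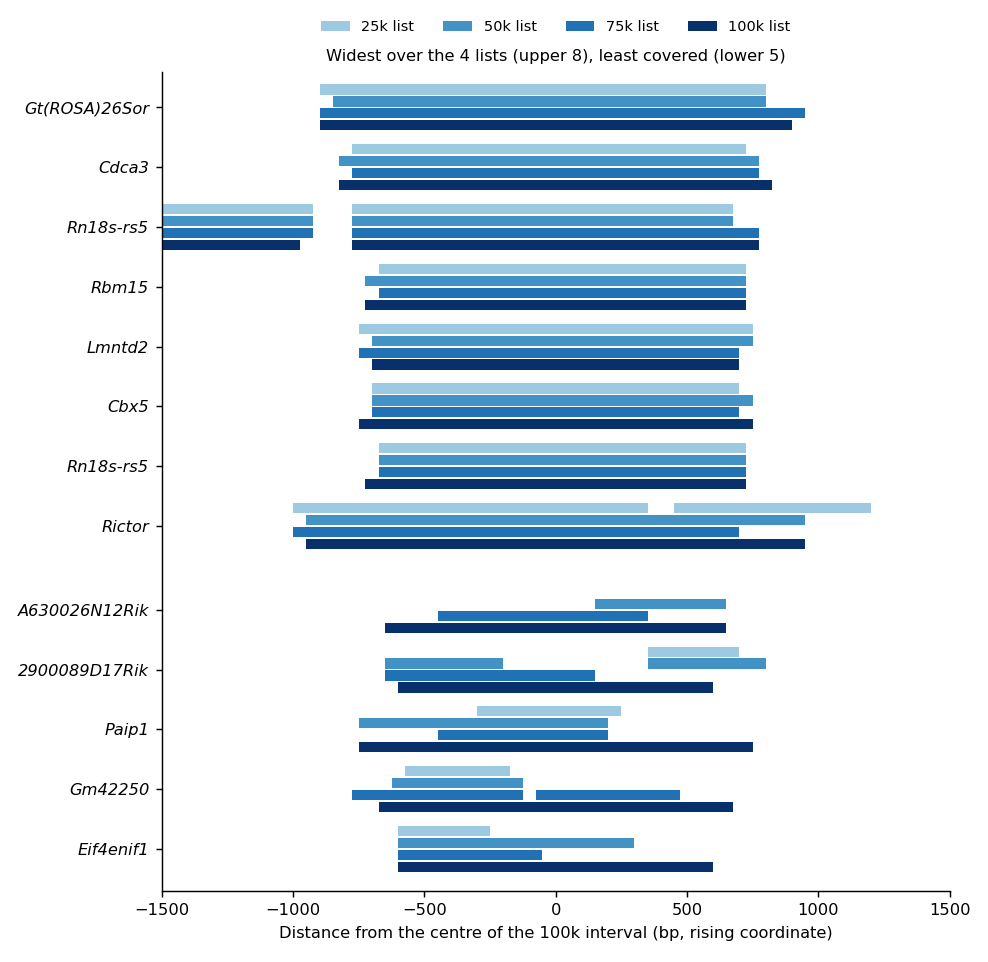
Extent of the intervals in the 4 lists (bars, lightest 25k, darkest 100k) as distance in bp from the centre of the 100k interval (horizontal axis), for the 8 members with the greatest smallest width over the lists (upper) and 5 of those least covered in the other lists (lower). In the upper 8 the bars of the 4 lists nearly coincide except at Rictor, whose right edge differs between lists and which is split in the 25k list, and in the lower 5 the other lists cover only part of the 100k interval, with none in the 25k list at A630026N12Rik.

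A pair of wide intervals lay over the 2 annotated ends of Rn18s-rs5, a pseudogene related to the 18S ribosomal RNA. The interval at chr17:39845051-39846600 measured 1450, 1450, 1550 and 1550 bp and that at chr17:39847451-39848900 measured 1400, 1400, 1400 and 1450 bp. Their scores were 238, 220, 101 and 134 for the first and 326, 353, 135 and 167 for the second. Ribosomal RNA genes exist in many near-identical copies, so reads at this pseudogene may come from other copies and both values are uncertain. Without this pair, 15.9% of members were wide in all 3 other lists.

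Some of the greatest widths belonged to the 100k list and were shorter or in pieces elsewhere. The region of the tRNA gene n-TYgta9 and Agbl5 (chr5:30887151-30889000), the latter a carboxypeptidase that trims glutamate from tubulin, was 1850 bp in the 100k list. Its widest interval was 800, 1350 and 1050 bp in the 25k, 50k and 75k lists, which nonetheless covered 94.6% of the region on average, in 2 or 3 pieces each. The region of the long non-coding RNA gene 2700012I20Rik (chr9:57075601-57077300), which also holds an annotated start of Sin3a, the scaffold of a histone deacetylase complex, was 1700 bp against 850, 900 and 900 bp. Ankrd16 (chr2:11777201-11778850) was 1650 bp against 750, 750 and 800 bp, and the interval of Gpd1 and Cox14 (chr15:99724301-99725900), a glycerol phosphate dehydrogenase and an assembly factor of cytochrome c oxidase, was 1600 bp against 750, 850 and 800 bp. At these last 3 places each other list had 2 intervals, so the 100k interval joined what the others listed as separate intervals, which can touch. Sp4 (chr12:118300901-118302500), a relative of Sp1, was split in the 25k and 50k lists at 750 bp each and whole in the 75k list at 1450 bp and the 100k list at 1600 bp. Elf2 (chr3:51340301-51341950), an ETS family factor, was a single interval in every list and measured 650, 1250, 1250 and 1650 bp. Scx (chr15:76455951-76457650), the tendon transcription factor scleraxis, measured 850, 1200, 900 and 1700 bp.

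The members least covered in the other libraries scored below the median member of each list. At A630026N12Rik (chr2:126674801-126676100), beside the start of Gabpb1, a subunit of the ETS-family complex GABP, the widths were 500, 800 and 1300 bp in the 50k, 75k and 100k lists with scores of 9, 21 and 15. The interval of 2900089D17Rik (chr5:144255001-144256200) measured 350, 450, 800 and 1200 bp in the 25k, 50k, 75k and 100k lists. Paip1 (chr13:119428251-119429750), which joins poly(A)-binding protein to translation, measured 550, 950, 650 and 1500 bp, the last joined from 5 peaks. Gm42250 (chr4:3677801-3679150), beside the kinase gene Lyn, measured 400, 500, 650 and 1350 bp. Eif4enif1 (chr11:3202051-3203250), which carries the cap-binding protein eIF4E into the nucleus, measured 350, 900, 550 and 1200 bp. Among all intervals of the same list, the scores of these 5, where listed, reached at most percentile 39.3 in the 25k list, 47.7 in the 50k list, 64.02 in the 75k list and 52.5 in the 100k list, where the median member stood at 84.7, 86.4, 86.8 and 87.3. On average between 33.3% and 50% of their length was covered in the other lists.

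Most members lay over transcription starts. Strand was known for the nearest gene of 323 members, and for 319 of these (98.8%, 96.9 to 99.7) the nearest end was the 5′ start, against 95.3% of intermediate and 76.0% of narrow intervals. The start itself lay within 600 bp of the centre, a fixed window added after the data were seen, in 94.1% of these members, 91.2% of intermediate and 61.1% of narrow intervals. Protein-coding genes were nearest at 330 members (82.9%) and long non-coding RNA genes at 53 (13.3%), against 85.1% and 12.1% of intermediate and 66.8% and 25.02% of narrow intervals. The members' genes had a median length of 18745.5 bp, near the 19065 bp of intermediate intervals and above the 13445 bp of narrow ones.

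The extra width lay on both sides of the start, taken as the start nearest the centre where an interval held several. This choice favours a reach on both sides, and 122 of the 398 members held 2 or more starts. In the 100k list the 326 members that hold a known start reached a median of 606 bp upstream and 669 bp downstream of it, intermediate intervals 412 and 382 bp, and narrow ones 285 and 250 bp. The downstream reach was the longer in 178 of the 326 (54.6%, 49.02 to 60.1). In the lists that did not choose them, the same places reached 535 bp upstream and 536 bp downstream (25k), 572.5 and 557 bp (50k), and 555 and 549.5 bp (75k). The reach of the 100k list was therefore longer on both sides, by more on the downstream side, as part of the width that chose the members in that list. At 500 bp downstream of the start 69.6% of members were open in the 100k list and 49.7%, 53.4% and 52.5% in the 25k, 50k and 75k lists. At 500 bp upstream the shares were 65.6% and then 54.3%, 59.8% and 59.2%.

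**Figure D3:**
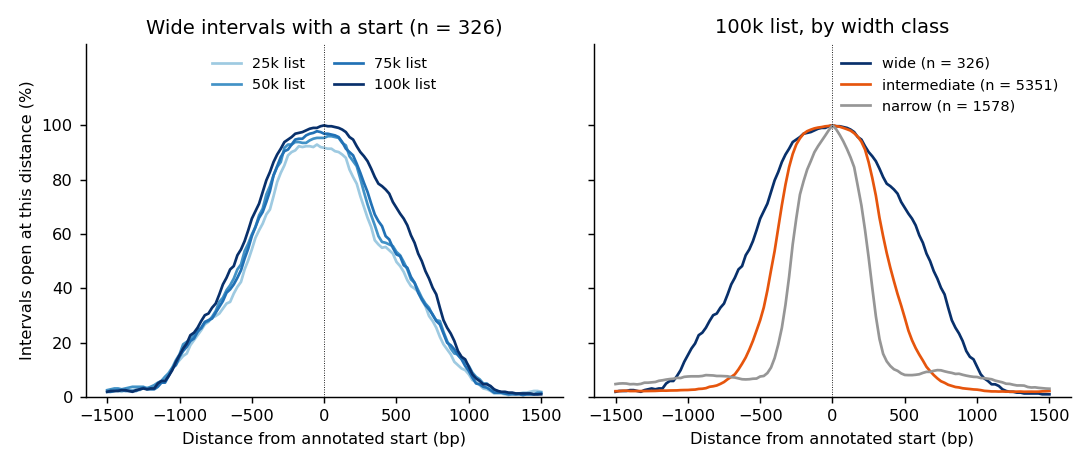
Share of intervals open (%, vertical axis) by distance from the annotated start in bp (horizontal axis, negative is upstream), for the 326 wide intervals that hold a start in each list (left) and for the 3 width classes in the 100k list (right). At 500 bp downstream the wide places are open in 69.6% of cases in the 100k list and in 49.7% to 53.4% in the other 3, and at the same distance 29.1% of intermediate and 8.05% of narrow ones are open.

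Wide intervals often lay where genes neighbour each other. Within 600 bp of the centre, 122 members (30.7%, 26.2 to 35.4) had the ends of 2 or more genes, against 23.3% of intermediate (22.4 to 24.3) and 9.59% of narrow intervals. Starts on both strands were present in that window at 84 members (21.1%, 17.2 to 25.4), against 14.8% (14.01 to 15.6) and 4.66%. Just below the minimum width, the share with ends of 2 or more genes was close to that just above it. It was 28.2% at 950 to 1050 bp and 29.6% at 1100 to 1150 bp, then 28.7% at 1200 to 1300 bp. At 1350 bp or wider it was 34.96%. Members and intermediate intervals were close at scores of 15 to 24 (20.8% and 20.2%) and 35 to 49 (23.9% and 22.6%). They were further apart at 25 to 34 (26.7% and 22.04%), 50 to 74 (35.2% and 26.1%) and 75 or above (46.3% and 28.2%). The share with 2 strands grew with width up to about 1000 bp and little beyond: it was 3.64% at 300 to 450 bp, 11.1% at 650 to 750 bp, 19.7% at 950 to 1050 bp, 20.2% at 1100 to 1150 bp, 20.0% at 1200 to 1300 bp and 23.6% at 1350 bp or wider. At equal score the difference was not regular: members and intermediate intervals had both strands in 10.4% and 12.6% at scores of 15 to 24, 23.3% and 12.9% at 25 to 34, 15.04% and 15.05% at 35 to 49, and 25% and 15.96% at 50 to 74. At a score of 75 or above, 29.9% of members (19.3 to 42.3) and 19.6% of intermediate intervals (17.1 to 22.2) had both strands, and these 95% intervals overlap. Members that were wide in all 4 lists had both strands in 21.5% of cases (12.3 to 33.5) and those wide only in the 100k list in 20.5% (14.7 to 27.3). Within 1 kb, 252 members had an end of 1 gene, 130 of 2, 10 of 3 and 6 of 4.

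**Figure D4:**
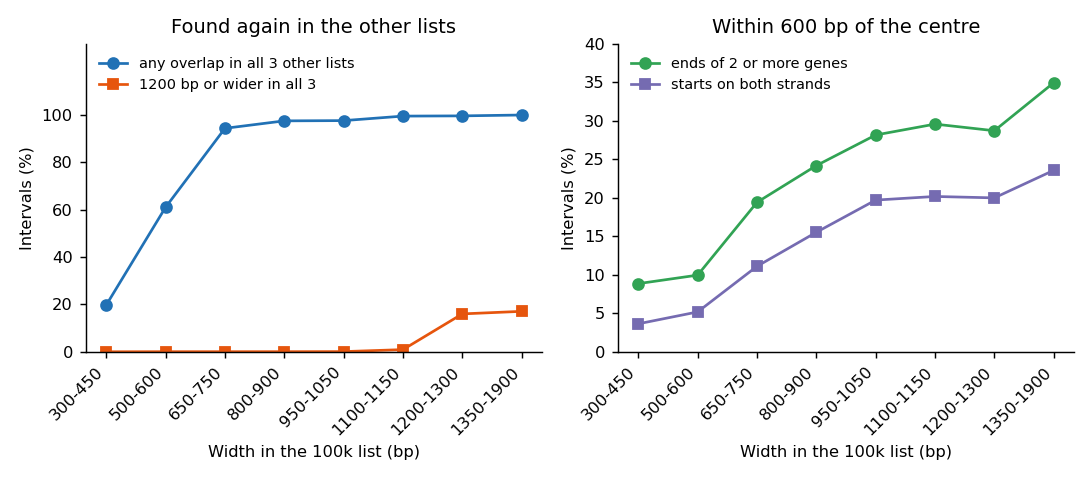
Share of gene-end intervals (%, vertical axes) by width in the 100k list (horizontal axes, bp): left, those overlapped in all 3 other lists and those with 1200 bp or more there; right, those with ends of 2 or more genes or starts on both strands within 600 bp of the centre. Overlap in all 3 lists climbs from 19.8% to 94.4% between 300 to 450 and 650 to 750 bp, and the share with both strands levels near 20.0% from about 1000 bp.

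The promoters in members were rich in G, C and CG. The 300-base windows of the 326 held starts had a median GC content of 66.5%, against 62.7% for intermediate intervals (n = 5351), 57.7% for narrow ones (n = 1578) and 53.0% for all 31396 autosomal windows of the table. The median CpG ratio was 0.830, 0.816, 0.710 and 0.389 in the same order. Members stood close to the intermediate class in CpG ratio and, taken over all scores, above it in GC content. Median GC content was 64.7% at 1100 to 1150 bp, 67.0% at 1200 to 1300 bp and 66.0% at 1350 bp or wider. For members and intermediate intervals it was 63.5% and 62.0% at scores of 15 to 24, and 67.3% and 62.0% at 25 to 34. It was 69.0% and 62.7% at 35 to 49, and 66.3% and 63.3% at 50 to 74. At a score of 75 or above it was 63.0% and 63.3%. Among members the CpG ratio ran from 0.0588 to 1.31. The 51 promoters in members wide in every list had a median ratio of 0.799 and a median GC content of 64.3%.

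Motif letters were searched on both strands of the same windows, and a match only says that the letters are there. The GC box GGGCGG was in 76.4% of member windows (71.4 to 80.9), 72.7% of intermediate, 56.1% of narrow and 36.0% of all windows. The E-box CACGTG was in 11.7%, 11.1%, 9.57% and 7.14%, and the cAMP response element TGACGTCA in 3.37%, 3.96%, 3.36% and 1.83%. The ETS letters CCGGAAG were in 12.9% of member windows (9.45 to 17.0), 21.9% of intermediate (20.8 to 23.0), 16.4% of narrow and 9.004% of all windows. The members therefore held them at a lower share than the intermediate class. The AP-1 letters TGANTCA were in 3.68% of member windows, 4.97%, 9.82% and 7.84% in the same order, the TATA letters TATAAA in 5.83%, 5.36%, 10.0% and 13.6%, and the TEAD letters GGAATG in 8.90%, 11.2%, 13.8% and 14.6%. The letters CCAAT were in 35.3%, 41.9%, 32.4% and 37.3%. Those of YY1 (AAGATGGC), NRF1 (GCATGCGC) and the CTCGCGAG element were in 4.91%, 4.91% and 2.45% of member windows, 5.06%, 6.54% and 2.41% of intermediate, 3.99%, 4.44% and 1.01% of narrow and 2.75%, 2.70% and 0.895% of all windows. None of these searches covers the open sequence beyond the 300 bases.

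Of 20665 autosomal protein-coding genes, 436 (2.11%) had an end within 1 kb of the centre of a wide interval, and 49.3% had one near any gene-end interval. Among the 10191 genes with any gene-end interval, the 436 are 4.28%. The 18 gene lists examined hold 509 autosomal genes, of which 368 had a gene-end interval and 24 a wide one, or 4.72% of the 509 and 6.52% of the 368. The lists were chosen with earlier results of these data known, and their counts are descriptions.

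TGF-beta signalling, which drives NMuMG cells to lose their epithelial form, had 3 of 29 genes at a wide interval, all of them SMADs, the proteins that carry the signal to the nucleus. The interval of Smad7 (chr18:75366301-75367650), the inhibitory SMAD, is nearest an end of Gm20544. It measured 650, 1400, 1400 and 1350 bp in the 25k, 50k, 75k and 100k lists. Smad2 (chr18:76240951-76242150), which acts below TGF-beta and activin receptors, measured 1050, 1150, 1000 and 1200 bp, and Smad5 (chr13:56702751-56704300), which acts below BMP receptors, measured 750, 900, 1000 and 1550 bp. Only the Smad7 place was wide in more than the 100k list. Starts of chromosome 18 were not used, so whether the Smad7 and Smad2 intervals hold a start is unknown. The ubiquitin ligase gene Smurf1 had the highest-scoring narrow interval of the list, at 550, 600, 550 and 500 bp. Its centre lay 698.5 bp from the annotated end and it held no gene end.

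The Hippo pathway, in which the kinases LATS1 and LATS2 hold the co-activator YAP out of the nucleus, had 4 of 21 genes at a wide interval. Ptpn14 (chr1:189727201-189728450), a phosphatase that binds YAP, measured 1200, 1300, 1250 and 1250 bp and was wide in every list. Amotl2 (chr9:102717151-102718550), an angiomotin that binds YAP, measured 800, 750, 850 and 1400 bp, with the other 3 lists showing 2 intervals each. Lats1 shares its interval (chr10:7680851-7682100) with the neighbour Pcmt1, at 450, 500, 600 and 1250 bp. Tead3 (chr17:28350051-28351250), a DNA-binding partner of YAP, measured 700, 1250, 550 and 1200 bp. The regulator Ptpn14 was thus the only one of the 4 with the width in all libraries, and Yap1 itself had a narrow interval of 500, 500, 650 and 550 bp.

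Immediate early genes answer growth signals within minutes, and MAPK feedback genes then damp them. Wide intervals lay at 2 of the 33 genes in the immediate early list, which includes AP-1, and at 1 of the 18 feedback genes. Egr1, a zinc finger factor, had 1 near each annotated end: chr18:34860201-34861500 measured 1250, 1350, 1750 and 1300 bp, and chr18:34865001-34866350 measured 1100, 800, 1350 and 1350 bp. The second was centred 719.5 bp from its end and held no gene end. Zfp36l2, which speeds the decay of mRNAs, shares its interval (chr17:84187651-84188900) with Gm36279 at 1250, 1300, 1250 and 1250 bp. Dusp1 (chr17:26507851-26509150), a phosphatase that switches off MAP kinases, measured 1250, 1350, 1250 and 1300 bp. All but the second Egr1 interval were wide in every list. Narrow intervals lay near an end of Myc, at 500, 500, 450 and 450 bp, and over the start of Spry1, at 500, 550, 600 and 550 bp. The Myc interval was centred 915.5 bp from that end and held no gene end.

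The list of epithelial-mesenchymal transition had 1 of 20, Vim (chr2:13573351-13574600), the intermediate filament vimentin, at 1150, 1350, 1250 and 1250 bp. It was 50 bp short of the minimum in the 25k list and wide in the rest. The housekeeping list had 2 of 20, Ppia (cyclophilin A; chr11:6415151-6416400) at 850, 1150, 1100 and 1250 bp and the alpha tubulin gene Tuba1b (chr15:98933701-98934900) at 1000, 1100, 1150 and 1200 bp. Both reached the minimum only in the 100k list, and Gapdh had a narrow interval of 600, 550, 550 and 500 bp.

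The list of RNA splicing and RNA binding genes had 4 of 32, 3 of them at an interval shared with a neighbour. Hnrnpa1 and Hnrnpa2b1, which bind pre-mRNA, lie head to head with the HP1 genes Cbx5 (above) and Cbx3 (chr6:51469551-51471050), the latter at 850, 1150, 1200 and 1500 bp. The RNA helicase gene Ddx5 shares an interval with Cep95 (chr11:106788251-106789450) at 1200, 1450, 1300 and 1200 bp, wide in every list. Luc7l2 (chr6:38550901-38552350), a splicing factor, measured 700, 700 and 700 bp, with 2 intervals each, and 1450 bp in the 100k list. The Ddx5 and Hnrnpa1 places were thus steady and the Luc7l2 place was not.

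Chromatin regulators had 2 of 28 genes and stress response genes 3 of 24. Eed (chr7:89980251-89981500), a core subunit of Polycomb complex PRC2, measured 600, 1300, 1150 and 1250 bp. Smarca4 (chr9:21615551-21616800), the ATPase of SWI/SNF, measured 800, 1150, 1250 and 1250 bp. Both were shortest in the 25k list. Atf4 (chr15:80254751-80256200), the factor of the integrated stress response, measured 650, 750, 700 and 1450 bp. Dnajb1 (chr8:83607701-83608950), a chaperone of the heat shock response, measured 850, 1100, 1100 and 1250 bp. Mdm2 (chr10:117709901-117711100), the ubiquitin ligase of p53, measured 650, 700, 750 and 1200 bp. None of the 3 stress genes had the width outside the 100k list, although all 4 lists were open at each.

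Several lists had few or no members. Cytosolic ribosomal protein genes had 1 of 50, Rpl7, whose interval (chr1:16104601-16106050) is nearest an end of Rdh10 and measured 650, 1000, 1050 and 1450 bp, although 46 of the 50 had a gene-end interval. Replication-dependent histone genes had 0 of 71 with 57 at a gene-end interval, and cell cycle genes 0 of 29 with 25. Developmental transcription factors had 0 of 47, with 19 at a gene-end interval, and mammary luminal and milk genes 0 of 17, with 5. Marker genes of blood cells (0 of 13), neurons (0 of 11) and liver and muscle (0 of 12) had none, with 2, 0 and 2 at any gene-end interval. Set against the 4.28% of all genes with a gene-end interval, lists of these sizes could hold few members, and nothing is read from their counts.

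Non-coding genes were nearest at the other members, here named after their values were seen. The 53 long non-coding RNA members had a median width of 1250 bp and a highest of 1800 bp, 22 of them also had an end of a protein-coding gene within 1 kb, and 9 were wide in all 4 lists. The 330 members at protein-coding genes had 52 wide in all 4. A tRNA gene was nearest at 5 members and none of them was wide in every list: besides n-TYgta9 these were n-TPagg7 (900, 950, 1400 and 1550 bp in the 25k, 50k, 75k and 100k lists), n-TRcct3 (1100, 1050, 1250 and 1350 bp), n-TLcaa3 (600, 1250, 800 and 1250 bp) and n-TVtac1 (600, 1150, 700 and 1200 bp). Each of the 5 intervals had a second tRNA gene or another gene within 1 kb, and transfer RNA genes exist in near-identical copies that can share reads. MicroRNA genes were nearest at 3 members, Mir3569 inside the neighbourhood of Kmt2b (1200, 1200, 1250 and 1250 bp), Mir762 beside Bcl7c (1200, 1100, 1250 and 1200 bp) and Mir8105 beside Smarcc2 (600, 650, 1200 and 1250 bp). All 3 had a protein-coding gene end within 1 kb.

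Members were unevenly spread over chromosomes. Chromosome 19 had 35 among its 532 gene-end intervals (6.58%, 4.62 to 9.03), chromosome 11 had 43 of 1112 (3.87%), chromosome 4 had 4 of 645 (0.620%, 0.169 to 1.58) and chromosome 14 had 1 of 343 (0.292%, 0.00738 to 1.61), against 3.24% over all autosomes. Chromosome 19 had the highest share in all 4 lists and chromosome 4 the lowest in the 3 lists that did not choose the members, while others changed place, such as chromosome 12 with 0.756%, 0.654%, 1.89% and 4.05% in the 25k, 50k, 75k and 100k lists. Wide gene-end intervals numbered 13, 22 and 25 on chromosome 19, 0, 1 and 2 on chromosome 4, and 2, 3 and 3 on chromosome 14 in the 25k, 50k and 75k lists. The scores moved the same way, with median gene-end scores in the 100k list of 39 on chromosome 19, 20 on chromosome 4 and 19 on chromosome 14, and their part in the uneven spread was not tested. The promoters in gene-end intervals had a median CpG ratio of 0.776 on chromosome 19, 0.805 on chromosome 4 and 0.796 on chromosome 14. The members of chromosome 4 were Gm42250 (above), Camta1 (1050, 1200, 1150 and 1300 bp), which encodes a calmodulin-binding transcription activator, Ube2r2 (500, 650, 600 and 1300 bp), a ubiquitin-conjugating enzyme, and D830031N03Rik (750, 700, 750 and 1200 bp). The member of chromosome 14 was Nr1d2 (800, 800, 850 and 1400 bp), a repressor of the circadian clock, with scores of 43, 76, 75 and 67. These 5 were named because they are all the members there, and Camta1 in the 50k list was the 1 case with the width in another list.

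**Figure D5:**
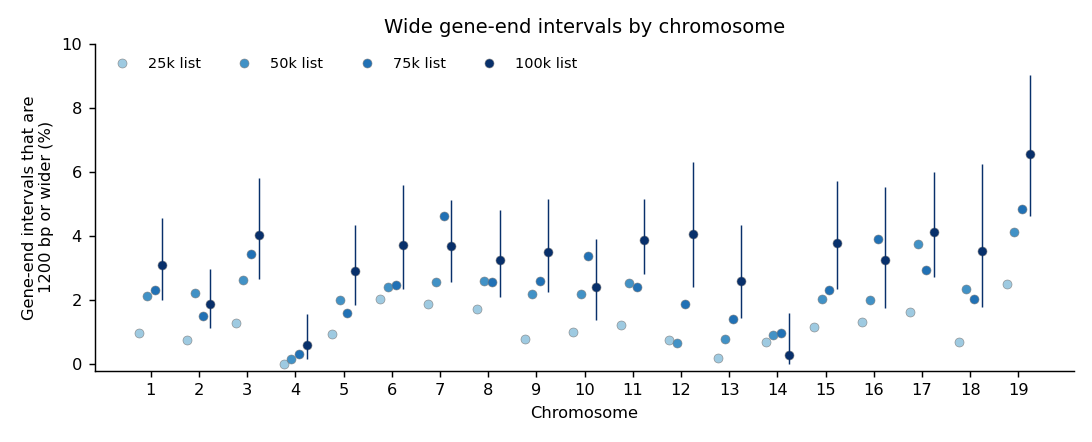
Share of gene-end intervals that are 1200 bp or wider (%, vertical axis) on each autosome (horizontal axis) in the 4 lists (points, lightest 25k, darkest 100k), with exact 95% intervals for counting error drawn for the 100k list. Chromosome 19 is highest at 6.58% in the 100k list, and chromosomes 4 and 14 are below 1% in every list.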

How the data were processed

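The sample titles gave the cell number of each of the 4 NMuMG libraries. For every library the authors deposited a peak list of its own, and each peak carries a whole-number score of at least 8. The formula of the score, the settings of the peak caller and any Tn5 shift are not stated in the sources used. The tools and builds come from the submitters' processing notes, which name Bowtie 0.12.8, Picard 1.107, bedtools 2.17.0, cutadapt and SAMtools with mm10 and hg19.

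Peaks overlapping by 1 bp or more were merged within each list, and places were matched across lists by the same overlap (Python 3.11.15, pandas 2.3.3, NumPy 2.4.6, SciPy 1.17.1). Gene ends came from the RefSeq table of GRCm38.p6, which gives no strand; starts and strand came from the RefSeq promoter windows, and none of chromosome 18 were used. Peaks in chromosome X, Y and unplaced sequence were left out. The members and gene lists were chosen with earlier results of these data known. Named genes were the 10 widest members, the 8 with the greatest smallest width, the 6 least covered, up to 4 per gene list, 3 on each side of the width minimum and 1 narrow interval per list, some of the last not named in the text. Some items these rules chose are left out. The merging and lookup functions were tested on simulated data, with 0 errors over 166 constructed intervals. Alternatives were other widths, windows, merging rules, choosing lists, score filters and gene classes.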

Additional observations from a re-analysis of the deposited data

How the results depend on the processing

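Over 17 alternatives, 12 of them planned and 5 chosen after the data were seen, 71 of 113 recomputed values stayed within a set limit and 42 moved beyond it. The limit was the counting interval of a share, the spread of a mean or median, and a fixed ratio for the number of members. Some values could not move, such as the narrow share under other minimum widths. Leaving out 61 to 64 Mb of chromosome 15 removed no member, so the tally is no measure of robustness. In the main setting 96.0% of members with strand known held a start. Ends of 2 or more genes lay inside 31.2% of members, and 84.2% of length was covered on average. With a minimum width of 1000 bp there were 1648 members, 24.1% of them as wide in all 3 other lists. With 1500 bp there were 34, with 5.88% as wide, 100% open in all 3, 73.5% nearest a protein-coding gene and 92.3% holding a start. Without merging there were 142 members (8.45% wide in all 3, 100% open, 89.2% of length covered, 98.3% holding a start, 53.7% of narrow intervals open). Merging across 100 bp gave 649 (81.7% covered). Chosen in the 25k list there were 134 (48.5% wide, 100% open, 93.7% covered, 39.6% with ends of 2 or more genes inside, 72.2% of narrow intervals open). In the 50k list there were 265 (24.5% wide, 88.7% covered, narrow 54.7%), and in the 75k list 21.9% were wide, 100% open and 88.7% covered (narrow 59.9%). Peaks at or above the median score gave 94.2% open, 79.2% covered and narrow 36.8%. Protein-coding ends only gave 100% open, 100% coding by construction, 18.7% with 2 or more genes and narrow 49.97%. Windows of 500 bp and 2 kb gave 97.9% and 93.0% holding a start and narrow 50.6% and 45.05%. Members of 1 peak were wide in all 3 in 26.3% of cases, and narrow intervals scoring 25 or above were open in 96.7%, both added later. The median CpG ratio moved beyond its spread under none of the alternatives run. Which other causes set these shifts was not tested. No paired analysis was possible because each cell number has 1 library. Depth is unknown and peaks scoring below 8 are not listed, so a place without an interval may hold weaker signal.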
